A study of Arabidopsis thaliana with 12 samples.

Results

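XERICO (AT2G04240), CML30 (AT2G15680) and ATSIK (AT3G08760) are 3 Arabidopsis thaliana genes linked to stress signalling. Each was represented by 1 probe annotated to exactly 1 gene, out of 692 such probes among the 3439 in the deposited table. They were chosen because each was higher in the psaf line, so the difference between genotypes is described below without a test. The psaf line is an antisense line in the Columbia-0 ecotype that lacks PSI-F, the photosystem I subunit on the side where plastocyanin delivers electrons. It was compared with wild type plants of the same ecotype (WT). Total RNA was hybridised to 6 psaf arrays and 6 WT arrays, numbered 1 to 6 in each genotype. Tissue, plant age, growth conditions, the promoter of the antisense construct and the number of plants or transformed lines behind each array are not stated in the labels.

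Abscisic acid is the plant hormone that accumulates under water deficit, closes stomata and induces protective genes. XERICO encodes a small RING-H2 zinc finger protein of the ubiquitin ligase type, and plants that overexpress it accumulate more abscisic acid and tolerate drought better. CML30 encodes a calmodulin-like protein, a member of the family of calcium sensors that bind calcium ions through EF-hand loops and pass calcium signals on to other proteins. ATSIK encodes a protein kinase, an enzyme class that transmits signals by phosphorylating other proteins.

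Intensities are on the authors' linear scale, where an average probe has a value near 1 and the ceiling is 100. The summed intensity of an array was 3563 to 3656 in psaf and 3627 to 3745 in WT, while the median probe lay at 0.416 to 0.459 in psaf and 0.536 to 0.569 in WT. In psaf and in WT alike, array 1 was closest to array 2, array 3 to array 4, and array 5 to array 6. A robust SD, taken over probes for the log2 difference of 2 arrays, was 0.118 to 0.156 within such a pair, 0.217 to 0.285 between other psaf arrays, 0.252 to 0.43 between other WT arrays and 0.449 to 0.612 between genotypes. Each close pair was therefore counted as 1 sample, and means ± SD are over 3 pair means per genotype. Nothing in the labels ties these pairs to separate plants. The p-values below therefore measure only the spread between these samples, which could be technical, and precision is limited by how few arrays there are. The PSAF transcript was on 0 probes with exactly 1 gene, so it gave no check of the genotype labels. In total RNA, fewer cells of a type and less RNA per cell cannot be told apart.

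The RING-H2 gene XERICO had the same order of genotypes on every array. It read 5.11 and 4.95 on psaf arrays 1 and 2, 5.53 and 4.99 on psaf arrays 3 and 4, and 4.86 and 4.76 on psaf arrays 5 and 6. In WT it read 3.64 and 3.57 on arrays 1 and 2, 3.67 and 3.37 on arrays 3 and 4, and 3.13 and 3.14 on arrays 5 and 6. The genotypes did not overlap, and the lowest psaf array stood 1.3-fold above the highest WT array. XERICO averaged 5.03 ± 0.222 in psaf and 3.42 ± 0.25 in WT (SD, n = 3 pair means each), a log2 difference of 0.56 ± 0.11 (SE) or a ratio of 1.47. The 9 ratios of a psaf pair mean over a WT pair mean ran from 1.33 to 1.68. Arrays 5 and 6 gave the lowest readings in both genotypes.

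The calcium sensor gene CML30 had the largest ratio of the 3 on the deposited scale. Its psaf readings were 1.96 and 1.92 on arrays 1 and 2, 1.85 and 2.03 on arrays 3 and 4, and 1.78 and 1.79 on arrays 5 and 6. Its WT readings were 1.34 and 1.26 on arrays 1 and 2, 1.14 and 1.29 on arrays 3 and 4, and 1.15 and 1.21 on arrays 5 and 6. No psaf array fell within the WT range, and the lowest psaf array was 1.33-fold above the highest WT array. CML30 averaged 1.89 ± 0.0892 in psaf and 1.23 ± 0.0609 in WT, a log2 difference of 0.62 ± 0.10 (SE) and a ratio of 1.53. The spread between pair means was similar in both genotypes, 4.73% of the mean in psaf and 4.95% in WT. Ratios between single pair means ran from 1.37 to 1.64.

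The kinase gene ATSIK separated the genotypes by the narrowest margin of the 3 on the deposited scale. On psaf arrays it read 1.01 and 0.937 for arrays 1 and 2, 1.12 and 1.07 for arrays 3 and 4, and 0.996 and 0.942 for arrays 5 and 6. On WT arrays it read 0.767 and 0.624 for arrays 1 and 2, 0.924 and 0.844 for arrays 3 and 4, and 0.663 and 0.678 for arrays 5 and 6. The lowest psaf array, array 2, exceeded the highest WT array, array 3, by a factor of 1.01, so the ranges met almost without a gap. ATSIK averaged 1.01 ± 0.0728 in psaf and 0.748 ± 0.117 in WT, a log2 difference of 0.44 ± 0.14 (SE) and a ratio of 1.36. Its pair means varied by 7.2% of the mean in psaf and by 15.6% in WT, and the ratios between single pair means ran from 1.1 to 1.63. Arrays 3 and 4 gave the highest ATSIK readings in both genotypes.

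**Figure D1:**
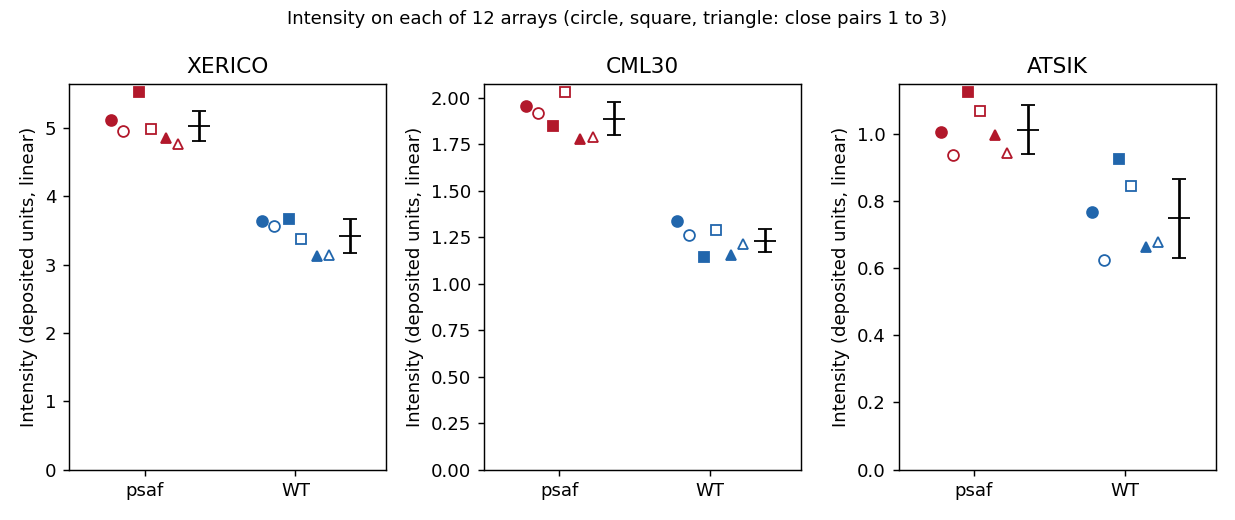
Linear intensity of XERICO, CML30 and ATSIK on each array, psaf left (red) and WT right (blue); circles, squares and triangles are arrays 1 and 2, 3 and 4, and 5 and 6, with the even-numbered array open, and the black bar is the mean ± SD of the 3 pair means. All psaf arrays lie above all WT arrays for each gene, with a factor of only 1.01 between the nearest arrays for ATSIK.

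All 3 genes thus had every psaf array above every WT array. Over the 3241 tested probes measured on all arrays, 6.79% had this arrangement, and 35.1% had every psaf array below every WT array. The call threshold of an adjusted p under 0.05 (limma over pair means) was passed in the direction of psaf by 4.76% of 3277 tested probes. Nothing is read from these shares about the 3 genes, since they were chosen for this direction. Ordered by log2 difference from the highest, CML30 stood at rank 18, XERICO at rank 24 and ATSIK at rank 44 of the 651 tested probes with exactly 1 gene. The median log2 difference of those probes was -0.34, and that of all tested probes was -0.29. Relative to the median tested probe, the differences were 0.91 for CML30, 0.85 for XERICO and 0.74 for ATSIK.

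The order of the genes changed when each was set against probes of like brightness, a comparison chosen after seeing the data. The deposited log2 differences of 0.56, 0.62 and 0.44 for XERICO, CML30 and ATSIK had SE of 0.11, 0.10 and 0.14. Their order was thus not resolved to begin with. Tested probes were put into 10 classes by mean intensity. The median log2 difference was 0.19 in the brightest class, which holds XERICO, -0.21 in class 9, which holds CML30, and -0.26 in class 8, which holds ATSIK. Set against the 200 probes nearest in brightness, the log2 difference became 0.36 for XERICO, 0.76 for CML30 and 0.69 for ATSIK. The difference of XERICO from probes of like brightness was thus smaller than its difference on the deposited scale, and those of CML30 and ATSIK were larger.

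**Figure D2:**
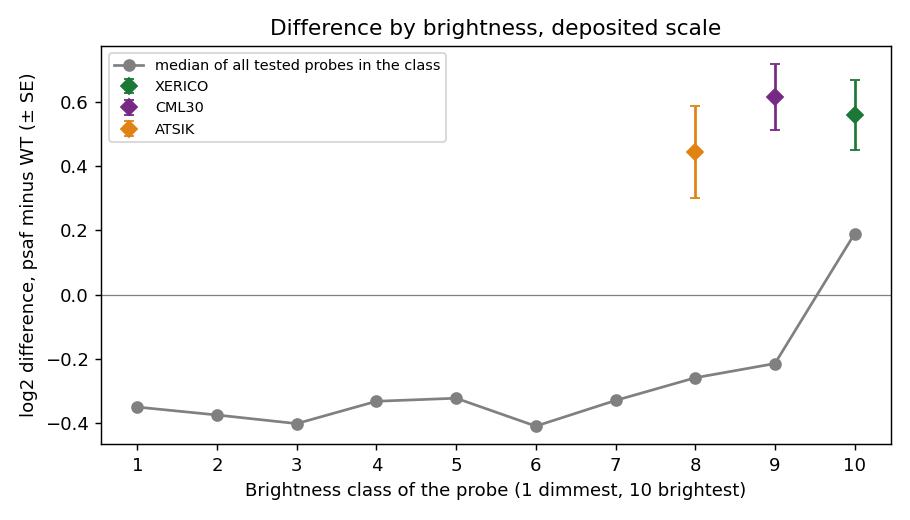
Log2 difference (psaf minus WT) on the deposited scale against brightness class, from 1 (dimmest) to 10 (brightest); grey points are the median of all tested probes in a class and diamonds the 3 genes with their SE. The class median is 0.19 in class 10 and -0.21 in class 9, so XERICO at 0.56 stands nearer to its class than CML30 at 0.62 does.

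The order of the genes also changed under cyclic loess and quantile normalisation, but not under median centring. XERICO came below ATSIK under the first 2 of these. CML30 and ATSIK differed there by less than their SE, so they cannot be ranked against each other. Under cyclic loess, which removes differences between arrays that vary with brightness, the log2 difference was 0.39 ± 0.09 for XERICO, 0.75 ± 0.09 for CML30 and 0.76 ± 0.14 for ATSIK (SE). Under quantile normalisation the log2 differences were 0.41, 0.78 and 0.74 in the same order of genes. Median centring gave log2 differences of 0.91 for XERICO, 0.97 for CML30 and 0.80 for ATSIK. Under each of these 3 scalings every psaf array stayed above every WT array for all 3 genes, as it did for 16.2% of probes under cyclic loess, 14.2% under quantile normalisation and 19.6% under median centring. The gap between the lowest psaf array and the highest WT array of ATSIK was 0.02 log2 on the deposited scale and 0.28 log2 under cyclic loess. For XERICO the gap was 0.37 log2 on the deposited scale and 0.20 log2 under cyclic loess.

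**Figure D3:**
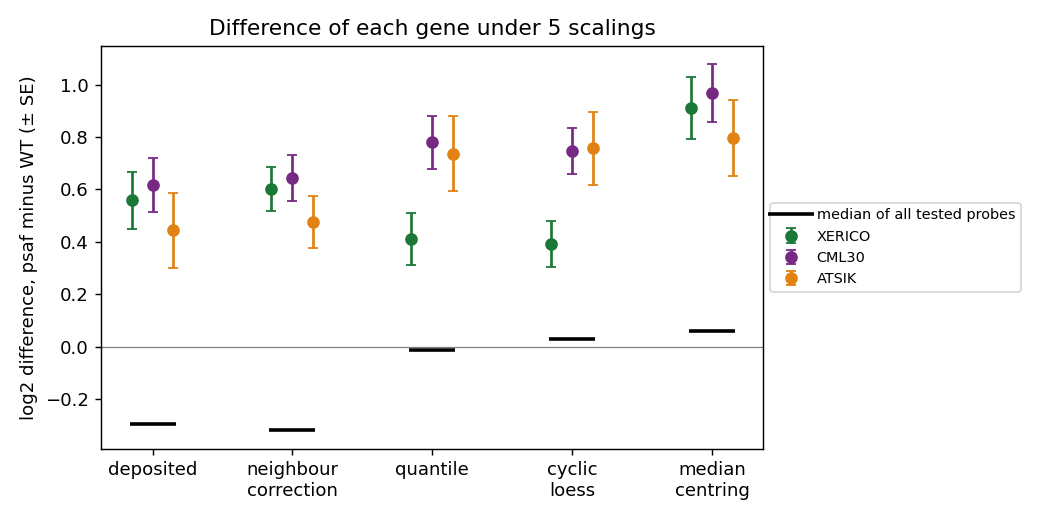
Log2 difference (psaf minus WT) with its SE for each gene under 5 scalings, with the median of all tested probes as a black bar. XERICO has a log2 difference of 0.39 under cyclic loess and 0.41 under quantile normalisation, below CML30 and ATSIK, which lie between 0.74 and 0.78 there.

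The 3 genes differed in how their readings varied among arrays of the same genotype. Of the total sum of squares of log2 intensity over 12 arrays, differences between close pairs of a genotype took 25.9% for ATSIK, 6.12% for XERICO and 3.24% for CML30. Differences within close pairs took 7.3% for ATSIK, 2.01% for XERICO and 2.6% for CML30. Probes with neighbouring numbers moved with some of these deviations and against others. On WT arrays 3 and 4, where ATSIK was highest in WT, the 4 probes nearest in number lay 0.15 and 0.16 log2 above their genotype's median. On psaf array 6 the 4 probes nearest to XERICO lay at -0.12 log2 and those nearest to CML30 at -0.21 log2. By contrast, CML30 lay at -0.11 log2 on WT array 3, where its nearest probes lay at 0.08. ATSIK lay at -0.16 log2 on WT array 5, where its nearest probes lay at 0.045. Subtracting the neighbouring deviations changed the log2 differences to 0.60 ± 0.08 for XERICO, 0.64 ± 0.09 for CML30 and 0.48 ± 0.10 for ATSIK (SE). The gap between genotypes went from 0.02 to 0.16 log2 for ATSIK. It went from 0.374 to 0.368 log2 for XERICO and from 0.409 to 0.397 log2 for CML30. Since each neighbour was set against its own genotype, the correction cannot remove a difference that the neighbours share between genotypes. It bears mainly on the spread among arrays of a genotype. Deviations from a median need not cancel out over arrays, so the log2 differences shifted slightly as well.

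**Figure D4:**
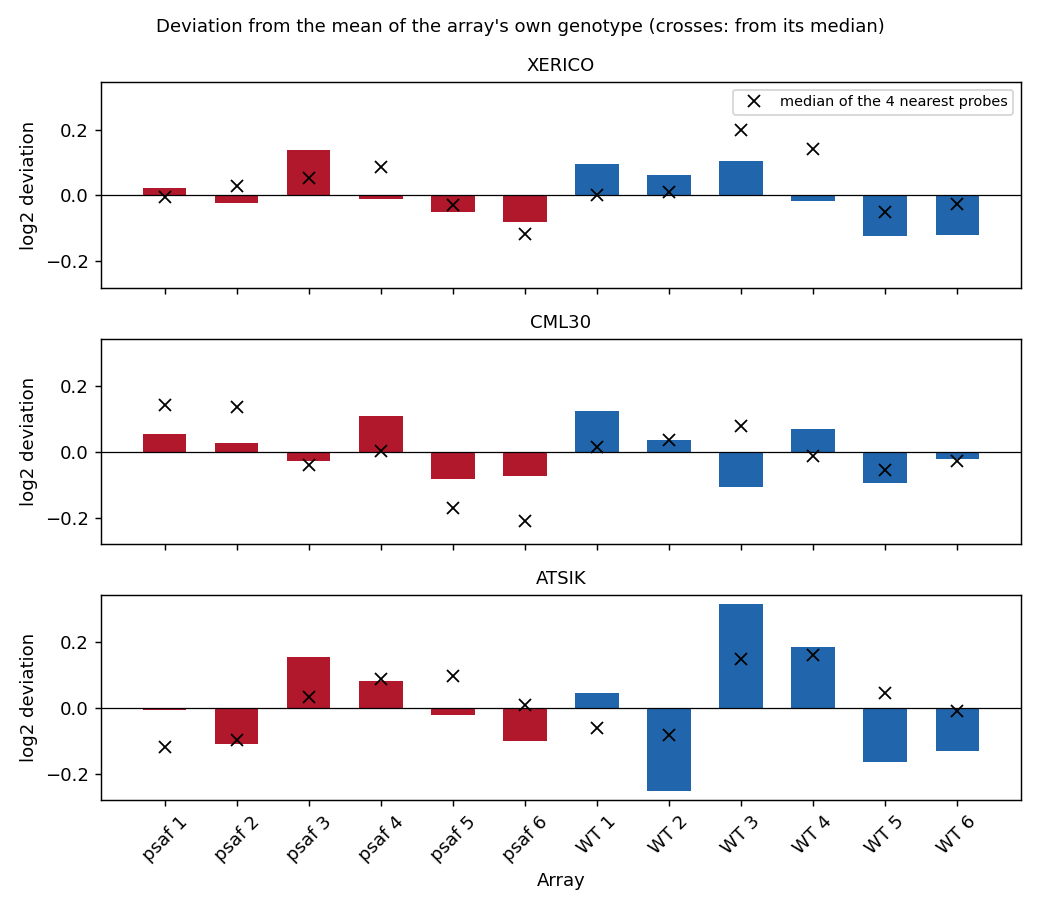
Log2 deviation of each gene on each array from the mean of its own genotype (bars, psaf red and WT blue), and, as crosses, the median of the 4 nearest probes, each taken from the median of its genotype. ATSIK has its largest upward bars on WT arrays 3 and 4, where the crosses lie at 0.15 and 0.16. On WT array 5 its bar lies at -0.16 and the cross at 0.045.

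Likeness of profiles was measured as the root mean square difference between log2 profiles over the 12 arrays, each centred on its own mean, among 647 other probes with exactly 1 gene. XERICO and CML30 differed by 0.10 log2, which made each the 4th most like probe to the other. ATSIK differed from XERICO by 0.14 log2 and from CML30 by 0.19 log2. The median distance to all candidates was 0.52 log2 for XERICO, 0.54 for CML30 and 0.48 for ATSIK. The distance holds the shared difference between genotypes, so any probe higher in psaf by a like amount comes out close.

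Most like XERICO were AT3G57630 at a distance of 0.08 log2, AT4G18180 at 0.09 and AT3G56290 at 0.10. Most like CML30 were AT4G31530 at 0.06 log2, AT4G18180 at 0.06 and AT3G57630 at 0.10. Most like ATSIK were AT4G19900 at 0.10 log2, AT3G47650 at 0.10 and AT3G56330 at 0.10. AT4G18180 averaged 6.4 ± 0.321 in psaf and 4.22 ± 0.497 in WT, and AT3G57630 averaged 1.22 ± 0.0984 in psaf and 0.781 ± 0.0686 in WT. The bright probe of AT4G31530 averaged 54.7 ± 4.82 in psaf and 35.6 ± 1.72 in WT. Its log2 difference of 0.62, almost that of CML30, became 0.19 under cyclic loess, where that of CML30 was 0.75.

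Few other genes of these pathways could be followed. Of 164 genes in 8 lists, 2 were on a probe with exactly 1 gene, CML30 itself and CML41. The lists of abscisic acid receptors and core signalling (40 genes), abscisic acid synthesis and breakdown (14), drought, cold and osmotic stress response (31), calcium-dependent and CBL-interacting kinases (29), the MAP kinase cascade (14), gibberellin DELLA repressors (5) and senescence markers (6) had 0 such probes. CML41 (AT3G50770), another calmodulin-like gene, read between 0.71 and 0.857 with a median of 0.78 in psaf, and between 0.781 and 0.925 with a median of 0.859 in WT. Its ranges overlapped, and the log2 difference of -0.15 did not pass (limma adjusted p = 0.308 over pair means). It was 0.18 under cyclic loess (adjusted p = 0.201), so no direction is given. DI21 (AT4G15910), named as a drought-induced gene, was the only gene found by searching gene names for abscisic acid or stress. It read between 0.558 and 0.85 with a median of 0.796 in psaf, and between 0.574 and 0.677 with a median of 0.643 in WT. Its log2 difference of 0.21 did not pass on the deposited scale (limma adjusted p = 0.313), but passed at 0.57 under cyclic loess (adjusted p = 0.0326), at 0.55 under quantile normalisation (0.0434) and at 0.57 under median centring (0.0349).

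A further 14 genes in 3 lists, CML41 and DI21 among them, were picked by their names from the probes with exactly 1 gene. IAA31 was listed at 0 on all arrays, and 13 were tested. In limma over pair means 0 of the 13 were higher in psaf and 3 were lower, and at an unadjusted p under 0.05 these counts were 0 and 6. Over all tested probes, at an adjusted p under 0.05, 4.76% were higher, 33.8% were lower and 38.6% passed in either direction. No share over all probes was taken at the unadjusted p, so the unadjusted counts have no such reference. With 12 single arrays 1 of the 13 was higher, where 11% of all probes were, and 6 were lower, where 50.2% of all probes were. With the neighbour correction 6 were lower, where 49.1% of all probes were. The median log2 difference of the 13 was -0.35, against -0.29 for all tested probes. The balance turned with the scaling. Under cyclic loess, quantile normalisation and median centring, 2 of the 13 were higher, DI21 and AILP1, where 10.8%, 8.57% and 13.1% of all probes were. Both means of AILP1 lay below the 5th percentile of measured intensities. Under the same 3 scalings 0 of the 13 were lower in limma at an adjusted p under 0.05, where 12.4%, 12.7% and 10% of all probes were. At an unadjusted p under 0.05, 1, 1 and 0 of the 13 were lower.

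Of the 4 genes with a calcium or calmodulin link, 1 was lower and 0 were higher, where 33.8% and 4.76% of all tested probes were. IQD22 (AT4G23060), of the IQ-domain family whose members bind calmodulin, fell to 0.0448 ± 0.012 in psaf, against 0.0829 ± 0.00938 in WT. Its log2 difference was -0.92 ± 0.22 (limma adjusted p = 0.0188). The ranges overlapped, with the highest psaf array at 0.0817 and the lowest WT array at 0.0711. Both means lie below 0.106, the 5th percentile of measured intensities. Adding that value before taking logs made the difference -0.32. Its call ended under the 3 other scalings, with a random block for close pairs (adjusted p = 0.131), without psaf array 5 (-0.73, adjusted p = 0.121), and without psaf arrays 3 and 4 (-0.98, 0.0504) or WT arrays 3 and 4 (-0.83, 0.0511). The related iqd32 (AT1G19870) was at 0.161 ± 0.0154 in psaf and 0.229 ± 0.0421 in WT (adjusted p = 0.0547). GLR2.7 (AT2G29120), of the glutamate receptor-like channels, was at 0.584 ± 0.0948 in psaf and 0.488 ± 0.308 in WT (adjusted p = 0.491). Its log2 difference of 0.56 became -0.19 without WT arrays 1 and 2.

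Of the 8 genes named for stress, damage or detoxification, 1 was lower and 0 were higher, where 33.8% and 4.76% of all tested probes were. CCS (AT1G12520), the copper chaperone of superoxide dismutase, fell to 0.249 ± 0.0575 in psaf, against 0.432 ± 0.124 in WT, a log2 difference of -0.79 ± 0.25 (limma adjusted p = 0.0467). Every psaf array was below every WT array, as for 35.1% of tested probes measured on all arrays. Under cyclic loess it was at -0.38 (adjusted p = 0.285), and the call also ended without psaf array 3, where the adjusted p lay just over 0.05. It ended too without psaf arrays 1 and 2, psaf arrays 5 and 6, WT arrays 3 and 4 or WT arrays 5 and 6 (-0.91 to -0.56, adjusted p = 0.0531 to 0.14). AILP1 (AT5G19140) was at 0.0533 ± 0.00381 in psaf and 0.0448 ± 0.00325 in WT, a log2 difference of 0.25 (adjusted p = 0.127) that was 0.58 under cyclic loess (adjusted p = 0.0252) and 0.08 with the offset. Both of its means lie below 0.106, the 5th percentile of measured intensities. It did not pass with a random block for close pairs (adjusted p = 0.347) or with the neighbour correction (adjusted p = 0.456). SIS (AT5G02020), named salt induced serine rich, was at 0.256 ± 0.0214 in psaf and 0.389 ± 0.0988 in WT (adjusted p = 0.0537). GLX2-1 (AT2G43430), of the glyoxalase II family that detoxifies methylglyoxal, was at 0.143 ± 0.0397 in psaf and 0.228 ± 0.0324 in WT (adjusted p = 0.0523). SRX (AT1G31170), the sulfiredoxin that regenerates oxidised peroxiredoxin, was at 0.203 ± 0.0385 in psaf and 0.262 ± 0.0662 in WT (adjusted p = 0.266). DRT100 (AT3G12610) and DRT101 (AT5G18070) had log2 differences of -0.14 and -0.04 (adjusted p = 0.636 and 0.838). The calls of iqd32, SIS and GLX2-1, the 3 genes nearest to the threshold, depended on the setting. With the neighbour correction all 3 passed (adjusted p = 0.00619, 0.0148 and 0.00756), as they did over 12 single arrays (0.00355, 0.00239 and 0.0167). SIS also passed with a random block for close pairs (0.0145), with array weights (0.0386) and without the dimmest 25% of probes (0.0429), and GLX2-1 among probes measured on all arrays (0.0498). Leaving out libraries changed the calls as well: iqd32 passed without psaf array 1, WT array 1, WT array 6 or WT arrays 5 and 6 (adjusted p = 0.0283 to 0.0474), SIS without psaf array 4 or 5, WT array 3 or 6 or WT arrays 1 and 2 (0.0245 to 0.0489), and GLX2-1 without psaf array 2, 3 or 6, WT array 3 or 5 or psaf arrays 1 and 2 (0.0349 to 0.0454).

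Among hormone and peptide signalling genes, RALFL32 (AT4G14010), of the RALF family of secreted peptides, was tested. It fell to 0.369 ± 0.054 in psaf, against 0.513 ± 0.0253 in WT, a log2 difference of -0.49 ± 0.14 (limma adjusted p = 0.0332). All psaf arrays lay below all WT arrays, as for 35.1% of tested probes measured on all arrays. It did not pass at -0.13 under median centring (adjusted p = 0.508) or at -0.08 under cyclic loess (adjusted p = 0.646). Its call also ended with array weights (-0.43, adjusted p = 0.0522) and without any close pair other than psaf arrays 1 and 2 (-0.53 to -0.38, adjusted p = 0.0581 to 0.0953).

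**Figure D5:**
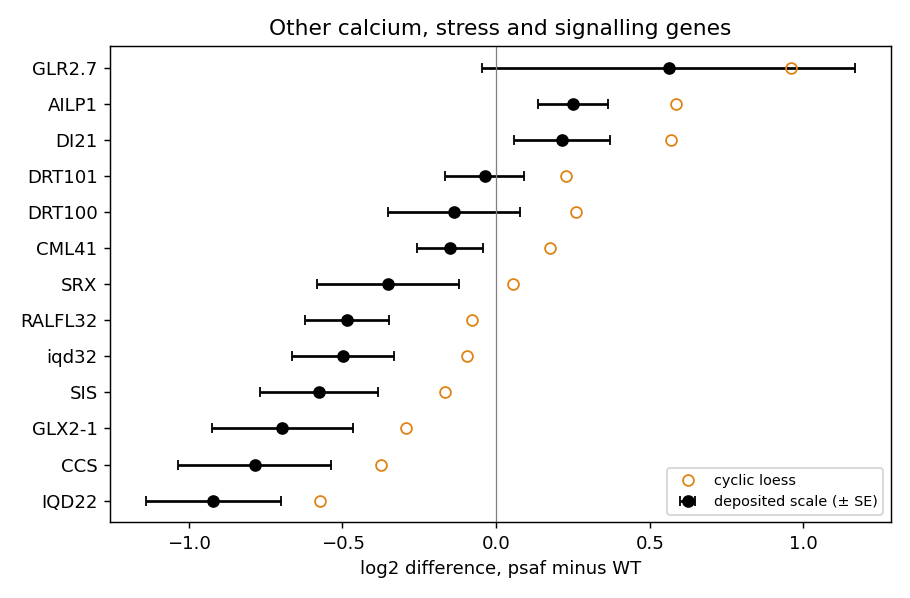
Log2 difference (psaf minus WT) of the 13 other tested genes of these lists on the deposited scale (black, ± SE) and under cyclic loess (open orange). Every gene lies further to the right under cyclic loess, and CML41, DRT100, DRT101 and SRX lie on the other side of 0 there.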

How the data were processed

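The authors deposited linear intensity values of 3439 probes on 12 one-channel arrays. The scanning and normalisation behind them are not stated in the labels, nor is whether 0 means missing or low. Values of 0 were treated as not measured. Log2 intensities of each close pair (arrays that were each other's nearest) were averaged, and 3277 probes with at least 2 pair means per genotype were tested in R 4.3.3 with limma 3.58.1 (genotype as the only term, moderated by eBayes), two-sided, with Benjamini-Hochberg adjustment over all tested probes and a threshold of 0.05. In the neighbour correction, the 4 probes nearest in number were each set against the median of their genotype, and the median of these deviations was subtracted on each array. Probes were named from the platform annotation: 692 had exactly 1 gene, 870 several, and 1877 were unnamed here. Of the 692, 690 matched RefSeq (TAIR10.1), used for names only. Gene families were searched by keyword in RefSeq symbols and synonyms, which found 0 RING finger and 0 protein kinase genes. This search missed XERICO and ATSIK themselves, so it does not show that such genes are absent from the probes. The genes named were the 3 members, all measured genes of the lists, family genes past the threshold and the 3 most alike probes per member. The members and lists were chosen with earlier results of these data known, and 3 lists were added from probe names. Tested on simulated data for psaf against WT with 3277 probes, the fit recovered 24% of 100 probes changed by 0.5 log2 and 64% of 100 changed by 1 log2, and 8.33% of calls were false. Far fewer probes were changed in the simulation than the 1264 called in the data, so these rates need not hold for the data.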

Additional observations from a re-analysis of the deposited data

How the results depend on the processing

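All 3 genes were higher in psaf under each of the 32 alternatives run for them, but they were chosen for this direction. Several settings cannot move the log2 difference, such as the fits over 12 single arrays or among probes measured on all arrays. Most others only leave out single arrays or a close pair. The number of alternatives is therefore no measure of robustness. Log2 differences of XERICO, CML30 and ATSIK moved beyond the spread of pair means under quantile normalisation (0.41, 0.78, 0.74), median centring (0.91, 0.97, 0.80), cyclic loess (0.39, 0.75, 0.76) and, chosen after seeing the data, brightness matching (0.36, 0.76, 0.69). Without single arrays they ran from 0.53 to 0.58, 0.59 to 0.65 and 0.39 to 0.49, and without a close pair from 0.50 to 0.60, 0.59 to 0.66 and 0.37 to 0.57. The count of probes called was 1264, and of those higher in psaf 156. Without single arrays these were 1216 to 1279 and 151 to 161. They were 1997 and 359 over 12 single arrays, 697 and 281 under quantile normalisation, 757 and 428 under median centring, and 760 and 355 under cyclic loess. With fewer samples, the counts without psaf arrays 1 and 2 were 962 and 102. Without psaf arrays 3 and 4 they were 785 and 83, and without psaf arrays 5 and 6 they were 709 and 88. The counts were 1896 and 288 with the neighbour correction. With the replicate number as a block over 12 arrays the counts were 2148 and 396, and with the number of the close pair as a block over pair means 1353 and 177. The block over pair means brought iqd32 and GLX2-1 past the threshold (adjusted p = 0.0259 and 0.0388), and that over 12 arrays also SIS, DI21, AILP1 and SRX. The labels name no pairing, and the array numbers do not settle whether there is one. Deviations correlated above 0.1 for 4 of 6 same-numbered pairs of arrays, with a range of 0.0074 to 0.30. For 8 of 12 arrays the best match was the same number, a hint from the data and not the design. Log2 differences changed sign under quantile normalisation, median centring and cyclic loess for CML41 (0.15, 0.20, 0.18), DRT100 (0.15, 0.22, 0.26) and DRT101 (0.22, 0.32, 0.23), and under median centring and cyclic loess for SRX (0.0022, 0.054). That of DRT101 was 0.058 without psaf arrays 3 and 4, and that of GLR2.7 was -0.068 with the neighbour correction and -0.19 without WT arrays 1 and 2. The causes were not tested.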
